A study of Mus musculus with 12 samples.

Results

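Amino acid transporters are the membrane proteins that move amino acids into and out of cells. The 7 genes described here, Slc7a5, Slc7a6, Slc3a2, Slc1a5, Slc1a4, Slc38a1 and Slc38a2, were taken by name from 55450 genes measured, and all 7 were among the 15361 genes with enough counts to test. RNA sequencing measured them in 3 CD4+ cell populations sorted from the mouse thymus, with 4 libraries each, 12 in all. All cells came from animals with CD4-Cre, a recombinase driven by the Cd4 promoter, and Foxp3-GFP, a reporter that marks cells making Foxp3, so the controls carried both as well. Eos+ regulatory T cells (Tregs) were sorted as Foxp3+ Ccr6+ Cxcr4+ cells, Eos- Tregs as Foxp3+ Ccr6- Cxcr4- cells, and conventional T cells (Tconv) as Foxp3- cells. The gene Ikzf4 encodes Eos, a transcription factor on which the sort was not based. The series asks about Eos in Tregs that recirculate to the thymus. No treatment, age or sex is given in the labels, and nothing in them tells if replicates are separate animals, so p-values measure only the spread between these libraries, which may be technical.

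Amino acids cross the plasma membrane of T cells through carriers that work together. Slc1a5 encodes ASCT2, a sodium-dependent exchanger of glutamine and other small neutral amino acids, and Slc1a4 encodes its relative ASCT1, which carries serine, alanine and cysteine. Slc38a1 and Slc38a2 encode SNAT1 and SNAT2, which bring in glutamine and alanine with sodium. Slc7a5 (LAT1) and Slc7a6 (y+LAT2) are light chains that reach the surface bound to the heavy chain CD98, encoded by Slc3a2; LAT1 takes up leucine and other large neutral amino acids in exchange for intracellular ones such as glutamine. T cells raise several of these carriers on activation, and leucine taken up through LAT1 feeds the kinase complex mTORC1.

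The libraries held 23.9 to 37.9 M expected counts each. The 9 T cell lineage genes summed to 7300 to 7820 CPM (counts per 1000000 of the TMM-scaled library total) in Eos+ Tregs, 8680 to 9500 for Eos- Tregs and 9960 to 10800 for Tconv, and the 9 Treg identity genes were all higher in both Treg groups than in Tconv. The libraries numbered 1 stood apart. Foxp3 was 55.0 and 53.3 CPM in the Treg libraries numbered 1 against 485 to 862 CPM in the other 6, and erythroid, platelet and granulocyte genes summed to 362 to 506 CPM in the 3 libraries numbered 1 against 0 to 41.9 in the other libraries. Values without these 3 libraries are given where they change the call of a gene named here.

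Promoter sequences of 2 of the genes are shown because Slc38a2 was lower in Eos+ Tregs than in Tconv and Slc1a4 was the low-level carrier whose Eos+ and Eos- Treg values did not overlap. Both come from RefSeq (GRCm38.p6) and are printed 5′ to 3′ on the gene's own strand, from 250 bases before the annotated start. Capitals in the Slc1a4 sequence mark the reverse complement of TGATGNAA (N, any base), the composite element bound by C/EBP and Atf4 proteins, and the printed stretch runs to the end of that match.
Slc1a4, chr11:20332710-20332963, minus strand: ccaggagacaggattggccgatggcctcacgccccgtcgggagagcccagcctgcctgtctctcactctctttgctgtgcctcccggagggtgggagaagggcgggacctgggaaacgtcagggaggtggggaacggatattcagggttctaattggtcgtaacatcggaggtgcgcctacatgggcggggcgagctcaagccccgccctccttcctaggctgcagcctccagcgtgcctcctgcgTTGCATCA
Slc38a2, chr15:96699729-96699978, minus strand: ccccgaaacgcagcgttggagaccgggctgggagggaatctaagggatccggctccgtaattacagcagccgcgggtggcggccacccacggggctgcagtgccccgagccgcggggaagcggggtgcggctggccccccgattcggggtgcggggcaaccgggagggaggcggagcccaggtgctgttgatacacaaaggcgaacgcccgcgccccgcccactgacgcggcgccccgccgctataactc
The first base of the Slc1a4 match lies 4 bases before the start. TGATGNAA was searched on both strands of the 300 bases from 250 before to 50 after each start, and 3.97% of 32851 such promoters held it. The Slc38a2 window held no match to it, and bases outside the windows were not searched. CACGTG, the E-box that Myc and other proteins bind, reads the same on both strands and was in 7.15% of promoters. It was in none of the 4 members in the table, which were these 2 with Slc7a6 and Slc3a2. Slc1a5, Slc7a5 and Slc38a1 were not matched.

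Levels compared between genes are CPM per kb of merged exons. Of the 7, Slc1a5 had the highest level per length in each of the 3 groups, with means of 172, 120 and 92.3 in Eos+ Tregs, Eos- Tregs and Tconv, and Slc3a2 came next at 42.2, 38.5 and 41.3. Slc38a2 followed at 19.4, 27.6 and 28.3. In both Treg groups Slc38a2 overlapped in range with Slc7a5 (16.7 and 20.3), and Slc7a5 overlapped with Slc7a6 (16.5 and 16.0), so their order does not exceed the spread between libraries. In Tconv, Slc7a6 at 20.2 lay above Slc7a5 at 16.5 without overlap. Slc38a1 stood at 6.69, 4.45 and 6.55, and Slc1a4 was last at 0.891, 0.198 and 0.385. The place of Slc38a1 depends on its merged exon length of 17.236 kb, which may exceed that of the transcripts expressed. In CPM its means (115, 76.7 and 113) were above those of Slc7a5 (62.0, 75.3 and 61.0). Slc1a5 made up 62.4% ± 6.31 (SD, n = 4) of the summed level of the 7 in Eos+ Tregs, 52.6% ± 3.91 for Eos- Tregs and 44.9% ± 3.81 for Tconv. The sum of the other 6 was 102 ± 11.9, 107 ± 4.01 and 113 ± 8.19.

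**Figure D1:**
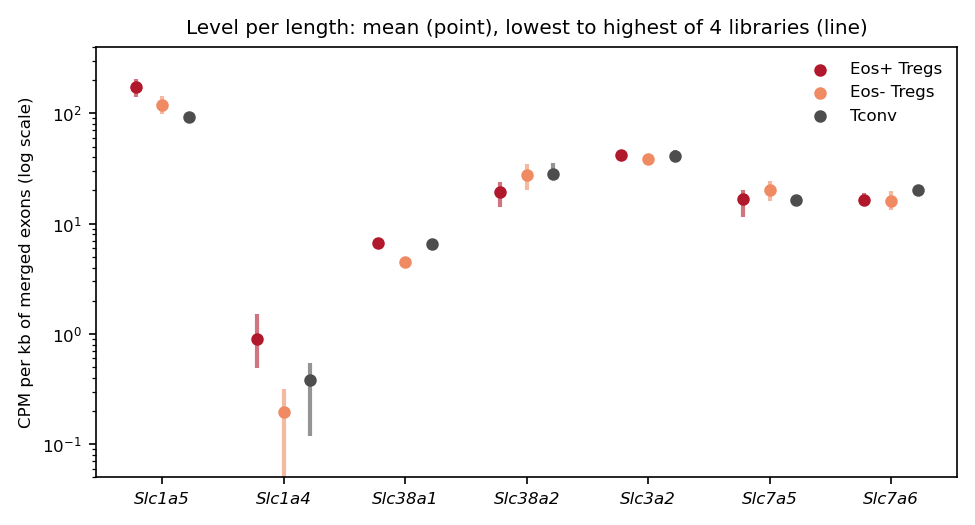
Mean level of each carrier in CPM per kb of merged exons on a log axis, with a line from the lowest to the highest of 4 libraries, for Eos+ Tregs, Eos- Tregs and Tconv. Slc1a5 lies highest and Slc1a4 lowest in each group; the Slc1a4 line of Eos- Tregs runs off the axis because 1 library held no count.

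Eos+ Tregs were set against Eos- Tregs to ask how the carriers differ between the 2 kinds of Treg. Slc1a5 and Slc38a1 were higher in Eos+ Tregs, by 1.44 and 1.5 times. The other 5 did not pass the test of the fit over all genes (edgeR quasi-likelihood, adjusted p under 0.05). Of all genes tested, 16.3% were called in this comparison with 9.82% higher and 6.45% lower, against 2 of the 7 carriers, both higher. The median log2 fold change of the 7 was 0.13, and that of all tested genes 0.00. In 2 of the 7 the groups did not overlap, as in 20.0% of genes. Against Tconv, Eos+ Tregs had higher Slc1a5 and lower Slc38a2, so 1 of 7 was called higher and 1 lower, where 30.3% of genes were called, 17.3% higher and 13.0% lower. The medians were 0.03 for the 7 and -0.01 for all genes, and the groups did not overlap for 2 of the 7 and for 33.1% of genes. Eos- Tregs against Tconv gave 1 call, a lower Slc38a1, where 14.6% of genes were called, 8.76% higher and 5.89% lower. The medians were -0.10 and -0.01, and the groups did not overlap for 1 of the 7 and for 20.1% of genes. These comparisons share groups and are not independent of each other. The fit did not use the replicate number. With that number as a block, 3, 2 and 2 of the 7 were called in the 3 comparisons, and 3498, 5571 and 3300 of all genes. The calls added were a lower Slc38a2 in Eos+ than in Eos- Tregs (adjusted p = 0.00459) and a higher Slc1a5 in Eos- Tregs than in Tconv (0.00976).

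**Figure D2:**
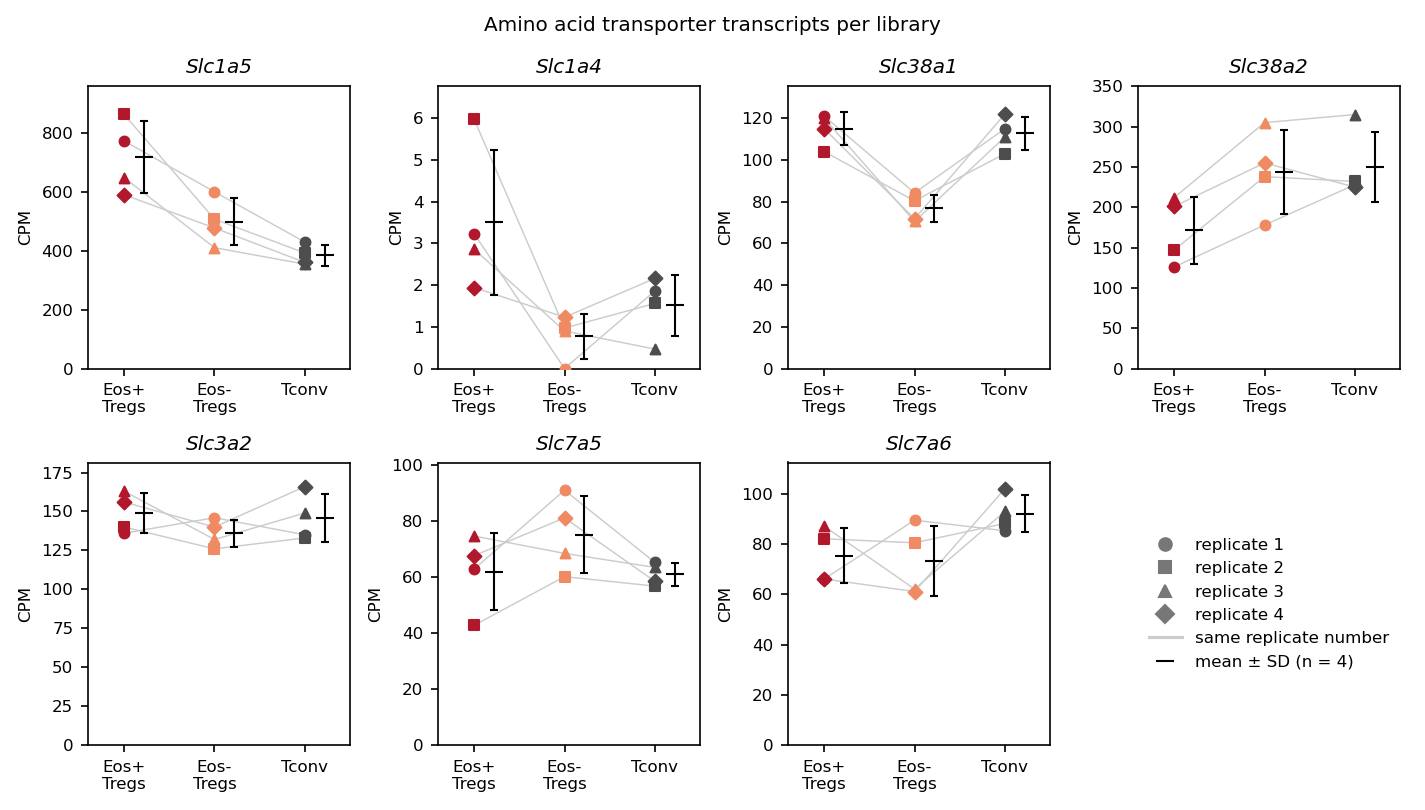
CPM of each carrier in every library, with symbols for replicate numbers, grey lines joining libraries of the same number, and bars for the mean ± SD of 4 libraries. Slc1a5 has its highest mean in Eos+ Tregs (591 to 864 CPM), Slc38a1 is lowest in Eos- Tregs (70.5 to 84.2 CPM) and Slc38a2 is lowest in Eos+ Tregs by its mean (171 CPM); each axis starts at 0.

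Slc1a5 (ENSMUSG00000001918.17, chromosome 7, 16781340 to 16798274, plus strand, GENCODE M21 on GRCm38), the glutamine exchanger, stood, over replicates 1 to 4 of Eos+ Tregs, at 774, 864, 649 and 591 CPM. It was 601, 508, 411 and 478 CPM for Eos- Tregs and 430, 393, 355 and 361 CPM for Tconv. Every Eos+ Treg library lay above every Tconv library, while the lowest Eos+ Treg value (591) fell below the highest Eos- Treg value (601). Within each replicate number the order was Eos+ Tregs, then Eos- Tregs, then Tconv, in 4 of 4. The log2 fold change was 0.90 (SE 0.14, adjusted p = 0.000235) against Tconv, and all 16 alternative fits called it. Against Eos- Tregs it was 0.53 (SE 0.13, adjusted p = 0.0174). Leaving out Eos+ Treg replicate 2 gave an adjusted p of 0.056, and leaving out Eos- Treg replicate 3 gave 0.0538, which ended the call. The call held with the replicate number as a block (adjusted p = 0.0013). Between Eos- Tregs and Tconv it was 0.38 (SE 0.13, adjusted p = 0.0826). With the replicate number as a block the adjusted p was 0.00976, and without Eos- Treg replicate 3 it was 0.0449. Only 3 of the 16 alternative fits called this difference, and without Tconv replicate 3 the adjusted p was 0.182.

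Markers of other cells differed between the groups, and not all in the same direction. The 12 B cell markers summed to 1400 to 1840 CPM in Eos+ Tregs, 177 to 476 for Eos- Tregs and 232 to 407 for Tconv, and none of the 12 was at 0 across a group. For the counts of this paragraph, the shares of all genes were 9.82% higher and 6.45% lower between the Treg groups. Against Tconv the shares were 17.3% and 13.0% for Eos+ Tregs, and 8.76% and 5.89% for Eos- Tregs. Of the 11 B cell markers tested, 4 were higher in Eos+ than in Eos- Tregs and 3 higher than in Tconv. Leaving out Eos- Treg replicate 1 raised the 4 to 9, and the block or leaving out the 3 libraries numbered 1 raised it to 6. For Eos- Tregs against Tconv, 0 were lower with all libraries, 4 without that replicate or without the libraries numbered 1, and 3 with the block. The 14 dendritic cell and macrophage markers summed to 98.7 to 166, 12.2 to 98.7 and 30.3 to 67.8 CPM, with none at 0 across a group, and 3 of 13 tested were higher in Eos+ Tregs than in each other group. Against Eos- Tregs the 3 became 5 with the block or without Eos- Treg replicate 1, and against Tconv it became 1 without Tconv replicate 2 or 3. The 17 G2 and M phase genes summed to 201 to 572, 34.8 to 528 and 331 to 639 CPM, with 0 of 17 called by edgeR in each comparison. At an unadjusted p under 0.05 the counts were 0, 0 and 3, with DESeq2 0 in each, and with limma-voom 0, 0 and 8, the last for Eos- Tregs against Tconv. Without Eos- Treg replicate 1, 8 of the 17 were higher in Eos+ than in Eos- Tregs and 10 were lower in Eos- Tregs than in Tconv. With the block these counts were 1 and 9, and without the libraries numbered 1 they were 1 and 10. The 10 markers of innate lymphoid cells, a list that includes genes Tregs also express, summed to 2270 to 2850, 1630 to 1760 and 1390 to 1810 CPM, and 5 of 10 were higher in Eos+ Tregs than in each other group, or 3 against Eos- Tregs when Eos- Treg replicate 3 or 4 was left out. Against Tconv, 2 of the 10 were lower in Eos+ Tregs. Double-positive thymocyte markers summed to 943 to 1380, 1060 to 1720 and 2150 to 2590 CPM. Of 11 tested, 2 were lower and 0 higher in Eos+ Tregs than in Tconv. For CD8, natural killer and cytotoxic markers that comparison gave 3 lower and 0 higher of 9 tested. The 0 was 1 without Eos+ Treg replicate 1, Tconv replicate 4 or the libraries numbered 1. Thymic epithelial and stromal markers gave 2 higher and 2 lower of 7 tested, or 1 lower without the libraries numbered 1. The part of these cells in the carrier values was not tested. In such bulk samples, fewer cells of a type and less RNA per cell cannot be told apart.

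Slc1a4 (ENSMUSG00000020142.12, chromosome 11, 20302180 to 20332713, minus strand), the neutral amino acid exchanger ASCT1, was the carrier of lowest level. It was 3.23, 5.97, 2.86 and 1.94 CPM in Eos+ Tregs, 0, 0.969, 0.899 and 1.23 for Eos- Tregs and 1.86, 1.56, 0.466 and 2.16 for Tconv. Each Eos+ Treg library lay above each Eos- Treg library, and Tconv overlapped both groups. The count of 0 in Eos- Treg replicate 1 allows up to 0.125 CPM, which is 3 counts and covers counting error only. The log2 fold change between the Treg groups was 2.15 (SE 0.80, 95% interval 0.42 to 3.88) with an adjusted p of 0.0884. Without Eos- Treg replicate 1 it was 1.74 with an adjusted p of 0.0425. Of 16 alternative fits, 2 called it, this one and DESeq2 (0.019). Without Eos+ Treg replicate 2 the adjusted p rose to 0.224, and with the block it was 0.0874. Neither comparison of Slc1a4 with Tconv passed, at 1.21 (-0.46 to 2.88) for Eos+ Tregs and -0.95 (-2.64 to 0.75) for Eos- Tregs.

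Slc38a1 (ENSMUSG00000023169.15, chromosome 15, 96571418 to 96642913, minus strand), which encodes the sodium-coupled carrier SNAT1, was 121, 104, 120 and 115 CPM in Eos+ Tregs. It was 84.2, 80.4, 70.5 and 71.8 CPM for Eos- Tregs and 115, 103, 111 and 122 CPM for Tconv. Every Eos- Treg library lay below all 8 libraries of the other 2 groups, which overlapped. The log2 fold change was 0.59 (SE 0.09, adjusted p = 0.000562) for Eos+ against Eos- Tregs and -0.56 (SE 0.09, adjusted p = 0.000806) for Eos- Tregs against Tconv. All 16 alternative fits of each comparison called it. Eos+ Tregs against Tconv gave 0.03, with a 95% interval from -0.15 to 0.21.

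Slc38a2 (ENSMUSG00000022462.7, chromosome 15, 96687392 to 96699730, minus strand) encodes SNAT2, the related carrier that cells short of amino acids are known to raise. It was 126, 147, 212 and 201 CPM in Eos+ Tregs, 178, 238, 305 and 255 for Eos- Tregs and 228, 232, 315 and 225 for Tconv. Each Eos+ Treg library lay below each Tconv library, and the Treg groups overlapped. Against Tconv, Eos+ Tregs were 1.46 times lower (log2 fold change -0.54, SE 0.19, adjusted p = 0.0455). The call did not hold without Eos+ Treg replicate 1 or 2, without any 1 of the 4 Tconv replicates (adjusted p 0.0559 to 0.142 over these 6 fits), and without the 3 libraries numbered 1 (0.0623). It held with the replicate number as a block (adjusted p = 0.00135). For Eos+ against Eos- Tregs the log2 fold change was -0.51 (SE 0.19, adjusted p = 0.0909), and within each replicate number Eos+ Tregs were lower, in 4 of 4. With the replicate number as a block that comparison gave an adjusted p of 0.00459, and without Eos- Treg replicate 1 it gave 0.0292. Only 3 of its 16 alternative fits passed, and without Eos- Treg replicate 3 the adjusted p was 0.246. Eos- Tregs against Tconv gave -0.04, with a 95% interval from -0.45 to 0.37.

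Per length, Slc38a1 was below Slc38a2 in all 12 libraries. The ratio of Slc38a1 to Slc38a2 was 0.492, 0.365, 0.291 and 0.294 in Eos+ Tregs, 0.242, 0.173, 0.119 and 0.145 for Eos- Tregs and 0.26, 0.228, 0.18 and 0.278 for Tconv. The Eos+ Treg ratios lay above all 8 others, and those of the other 2 groups overlapped. Over the 12 libraries, Slc1a5 and Slc38a2 had a Pearson r of -0.85 on log2 CPM and -0.84 after the group means were removed. It is a description of 12 libraries whose replicate numbers are shared between the groups.

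**Figure D3:**
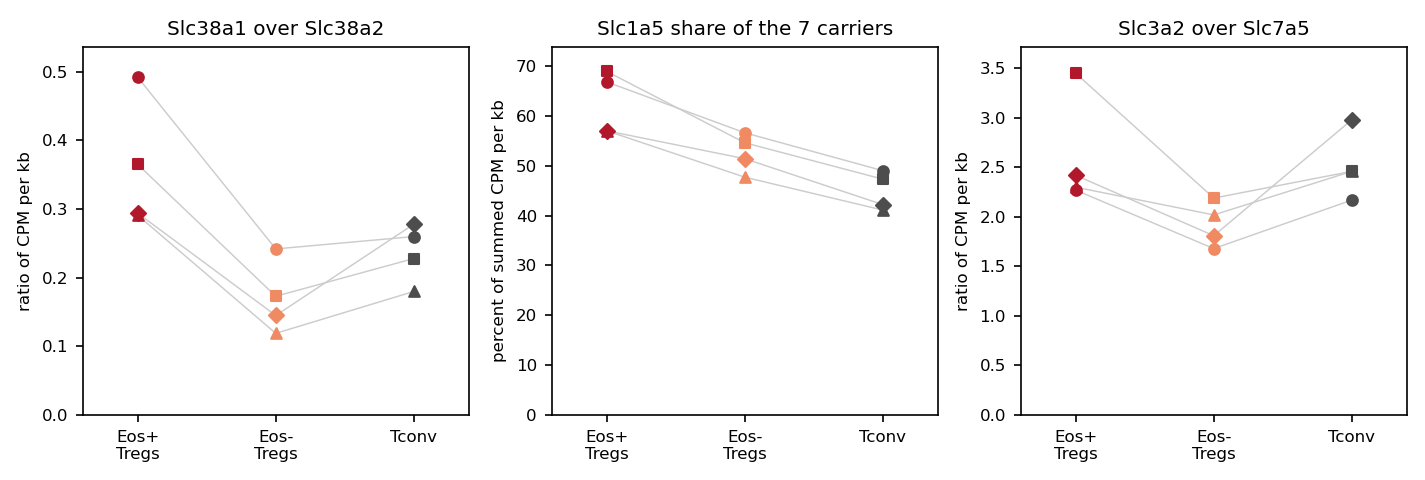
Ratios and a share computed per library from CPM per kb, on axes from 0: Slc38a1 over Slc38a2, Slc1a5 as a percentage of the 7 carriers summed, and Slc3a2 over Slc7a5. Circles, squares, triangles and diamonds are replicates 1 to 4, and grey lines join the same number; the Slc38a1 ratio is 0.291 to 0.492 in Eos+ Tregs and at most 0.278 elsewhere.

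The CD98 heavy chain and its 2 light chains among the members passed in none of the 3 comparisons. Slc3a2 (ENSMUSG00000010095.13, chromosome 19, 8706882 to 8723369, minus strand) was 136, 140, 163 and 156 CPM in Eos+ Tregs, 146, 126, 132 and 140 for Eos- Tregs and 135, 133, 149 and 166 for Tconv. The 3 groups overlapped. The log2 fold changes were 0.13 (95% interval -0.06 to 0.33) between the Treg groups, 0.03 (-0.16 to 0.23) for Eos+ Tregs against Tconv and -0.10 (-0.30 to 0.09) for Eos- Tregs against Tconv. Over the 3 comparisons these intervals ran from -0.30 to 0.33.

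Slc7a5 (ENSMUSG00000040010.10, chromosome 8, 121881150 to 121907694, minus strand), the LAT1 light chain, was 62.9, 42.8, 74.7 and 67.7 CPM in Eos+ Tregs. It was 91.1, 60.2, 68.5 and 81.2 CPM for Eos- Tregs and 65.3, 56.8, 63.5 and 58.5 CPM for Tconv. The groups overlapped in every comparison, and the Tconv libraries lay close together while both Treg groups spread more widely. Its log2 fold change was -0.28 (-0.63 to 0.08) between the Treg groups, 0.02 (-0.33 to 0.38) for Eos+ Tregs against Tconv and 0.30 (-0.05 to 0.66) for Eos- Tregs against Tconv. Per length, Slc3a2 was 1.68 to 3.45 times the level of Slc7a5 over the 12 libraries.

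Slc7a6 (ENSMUSG00000031904.5, chromosome 8, 106168857 to 106198706, plus strand), the y+LAT2 light chain, was 66.1, 82.1, 87.1 and 66.1 CPM in Eos+ Tregs. It was 89.5, 80.5, 62.1 and 61.1 CPM for Eos- Tregs and 85.3, 88.2, 93.0 and 102 CPM for Tconv. Tconv had the highest mean, and its range overlapped with both Treg groups. Against Tconv the log2 fold change was -0.29 (-0.59 to 0.01, adjusted p = 0.134) for Eos+ Tregs and -0.33 (-0.63 to -0.03, adjusted p = 0.135) for Eos- Tregs. The Eos- Treg comparison passed without Eos- Treg replicate 1 (adjusted p = 0.0431) and without the 3 libraries numbered 1 (0.047). Between the Treg groups it was 0.04 (-0.26 to 0.34).

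**Figure D4:**
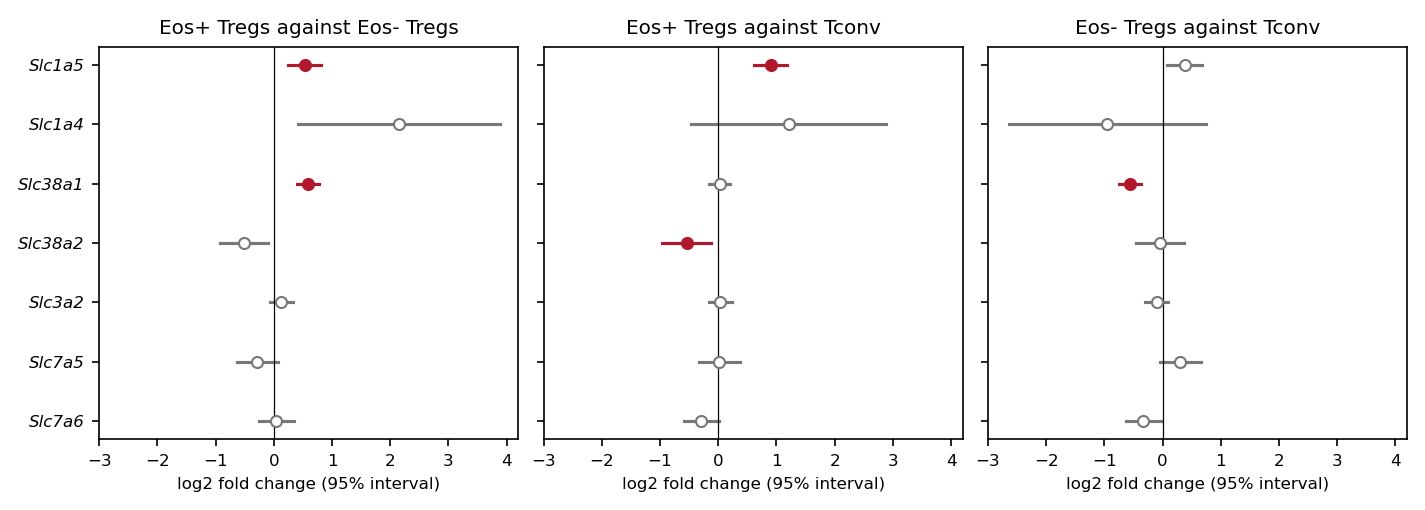
Fitted log2 fold changes of the 7 carriers with 95% intervals in the 3 comparisons; filled red points passed an adjusted p of 0.05 over 15361 genes and open grey points did not. Slc1a5 and Slc38a1 pass at 0.53 and 0.59 between the Treg groups, Slc1a5 and Slc38a2 at 0.90 and -0.54 for Eos+ Tregs against Tconv, and Slc38a1 at -0.56 for Eos- Tregs against Tconv.

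Other carriers of amino acids were read from a list of 31 genes, of which 16 were tested. Between the Treg groups 2 were higher in Eos+ Tregs and 0 lower. Against Tconv, 4 were higher and 1 lower in Eos+ Tregs, and 1 was higher and 1 lower in Eos- Tregs. The counts of this and each other list stand beside the shares of all genes tested. These were 9.82% higher and 6.45% lower between the Treg groups. Against Tconv they were 17.3% and 13.0% for Eos+ Tregs, and 8.76% and 5.89% for Eos- Tregs. With the replicate block 1 was lower between the Treg groups and 2 were higher in Eos- Tregs than in Tconv. Leaving out Eos+ Treg replicate 3, Eos- Treg replicate 2 or Eos- Treg replicate 4 brought the 2 to 1. The median log2 fold changes of the 16 in the 3 comparisons were -0.05, 0.16 and 0.05. With the block, calls over all genes also rose, from 2500 to 3498, 4655 to 5571 and 2249 to 3300 in these comparisons.

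Means of the other genes are CPM ± SD over 4 libraries in the order Eos+ Tregs, Eos- Tregs, Tconv, changes are log2 fold changes, and medians follow the order of the comparisons above. Slc7a10, a further light chain of CD98 that carries small neutral amino acids, was 8.93, 3.82, 5.66 and 8.83 CPM in Eos+ Tregs. It was 0.623, 0, 0 and 0.23 CPM in Eos- Tregs and held no count in the 4 Tconv libraries. The log2 fold change between the Treg groups was 5.04 (SE 1.07, adjusted p = 0.0103), and against Tconv, at 3 counts over that group, Eos+ Tregs were at least 293-fold higher. Eos- Tregs held 23 counts in all, so no least fold is given for Eos- Tregs against Tconv. That comparison did not pass (adjusted p = 0.065), though leaving out Eos- Treg replicate 2 gave 0.035 and replicate 3 gave 0.0413. Slc7a10 was chosen after its values were seen, and it shares 377 exon bases with Lrp3, which reached at most 0.528 CPM. Slc43a1 (LAT3, a carrier of large neutral amino acids) was 19.3 ± 2.56 CPM in Eos+ Tregs, 18.1 ± 7.06 for Eos- Tregs and 4.33 ± 1.49 for Tconv, with log2 fold changes of 2.16 (adjusted p = 0.000118) and 2.06 (0.000497) against Tconv. Slc43a2 (LAT4), at 74.1 ± 8.72, 61.0 ± 4.91 and 46.7 ± 9.06 CPM, was higher in Eos+ Tregs than in Tconv by 0.67 (adjusted p = 0.00279). For Eos- Tregs against Tconv it gave 0.39 (adjusted p = 0.0851, or 0.0428 with the replicate block). Its value is uncertain because 922 exon bases lie over the antisense gene Gm45606, which reached 39.8 CPM, and the libraries carry no strand.

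Slc16a10 (TAT1, for aromatic amino acids) was 1.68 ± 0.794 CPM in Eos+ Tregs, 4.15 ± 2.99 for Eos- Tregs and 19.7 ± 2.98 for Tconv. It was 11.7 times lower in Eos+ Tregs than in Tconv (adjusted p = 8.9e-05) and 4.76 times lower in Eos- Tregs (0.00422). Its change between the Treg groups was -1.30 (adjusted p = 0.0634, or 0.0313 with the block); it passed without replicate 1 of Eos+ Tregs, replicate 3 of Eos- Tregs or the 3 libraries numbered 1 (0.0211 to 0.0367). Slc36a4 (PAT4, an amino acid carrier) was 24.0 ± 5.34, 13.1 ± 3.62 and 13.5 ± 3.02 CPM and was higher in Eos+ Tregs by 0.88 (adjusted p = 0.0236) against Eos- Tregs and 0.83 (0.0182) against Tconv. The first did not hold without replicate 3 of Eos+ Tregs or replicate 2, 3 or 4 of Eos- Tregs (0.0534 to 0.0759), and the second without Eos+ Treg replicate 3 (0.0633) or Tconv replicate 2 (0.0501). The arginine carrier Slc7a1 did not pass in any comparison, at 26.5 ± 7.22, 26.9 ± 3.17 and 32.9 ± 4.41 CPM. Slc7a8 (LAT2) stayed at or below 1.44 CPM in all 12 libraries, and no comparison passed with all libraries. Without Eos- Treg replicate 3, the only Eos- Treg library with a count, both comparisons with Eos- Tregs passed (adjusted p = 0.026 and 0.0306). That fit leaves Eos- Tregs without a count, so these calls depend on which library was removed and show no difference. Eos+ Treg replicate 2 held no count either.

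Genes that sense amino acids for mTORC1, with carriers of the lysosome, formed a list of 40 genes, of which 39 were tested. In Eos+ Tregs 9 were higher and 5 lower than in Tconv, and 5 were higher and 1 lower in Eos- Tregs than in Tconv. Of all genes tested, 17.3% were higher and 13.0% lower in the first comparison, and 8.76% and 5.89% in the second. Between the Treg groups 4 were higher in Eos+ Tregs and 0 lower, and that count of 4 was 1 or 2 when any 1 of the 8 libraries was left out. Of all genes, 9.82% were higher and 6.45% lower there. The 5 lower in Eos+ Tregs than in Tconv became 3 without Eos+ Treg replicate 1, Tconv replicate 2 or 3 or the libraries numbered 1. The 1 lower in Eos- Tregs became 0 in 6 of 8 such fits, with Eos- Treg replicates 1 and 3 as the exceptions, and the 0 lower between the Treg groups became 2 without replicate 4 of Eos+ Tregs or replicate 1 of Eos- Tregs. The median log2 fold changes were -0.03, 0.06 and 0.12. Sesn2, a leucine sensor of the sestrin family, was 37.5 ± 6.93 CPM in Eos+ Tregs, 13.6 ± 3.6 for Eos- Tregs and 12.4 ± 2.88 for Tconv, higher in Eos+ Tregs by 1.47 (adjusted p = 0.000922) and 1.60 (0.00017). Its relative Sesn1, at 233 ± 24.3, 245 ± 37.3 and 115 ± 9.53 CPM, was higher in both Treg groups than in Tconv, by 1.02 (adjusted p = 1.93e-05) and 1.10 (3.66e-05). Castor1, an arginine sensor, had the same order, at 29.5 ± 1.56, 30.8 ± 5.36 and 11.3 ± 1.26 CPM, and differed by 1.39 (adjusted p = 1.31e-05) and 1.45 (3.25e-05). Rragd, a Rag GTPase that recruits mTORC1 to the lysosome, was 31.5 ± 5.85, 16.7 ± 3.66 and 3.17 ± 1.35 CPM. It was higher by 3.31 (adjusted p = 4.05e-06) and 2.39 (0.000158) against Tconv and by 0.92 between the Treg groups (adjusted p = 0.0368), a call lost in 7 of 8 fits that left out 1 library (Eos+ Treg replicate 2 excepted; 0.0512 to 0.101).

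The amino acid response, in which the kinase Gcn2 and the factor Atf4 turn on synthesis and transport genes when amino acids are short, had 19 of its 22 genes tested. Eos+ Tregs had 4 higher and 1 lower than Eos- Tregs, and the block raised the 4 to 7. The 4 became 8 without Eos- Treg replicate 1, and also without the 3 libraries numbered 1. Calls over all genes in this comparison went from 2500 to 3498 with the block and to 2936 without Eos- Treg replicate 1. Without the libraries numbered 1 they fell to 2294. Against Tconv 6 were higher and 1 lower in Eos+ Tregs, and 1 was higher and 1 lower in Eos- Tregs. With the block 2 were lower in Eos+ Tregs than in Tconv, and 2 higher and 2 lower in Eos- Tregs. The 1 lower in Eos- Tregs was lost in 6 of 8 fits that left out 1 library, Eos- Treg replicate 1 and Tconv replicate 3 excepted. The medians were 0.22, 0.54 and -0.05. Atf4 itself did not pass in any comparison, at 92.6 ± 14.8, 97.0 ± 23.7 and 104 ± 30.3 CPM. Eif4ebp1, which encodes a translation repressor that mTORC1 phosphorylates, was 22.1 ± 3.14, 13.1 ± 1.51 and 9.61 ± 0.658 CPM. It was higher in Eos+ Tregs by 0.76 (adjusted p = 0.00314) and 1.20 (4.38e-05). For Eos- Tregs against Tconv it was 0.44 (0.0573, or 0.0352 with the block). Aldh18a1, for proline synthesis, was higher in both Treg groups than in Tconv, by 0.74 (adjusted p = 7.14e-05) and 0.70 (0.000324). Asns, the asparagine synthetase, was 6.49, 5.80, 6.73 and 5.98 CPM in Eos+ Tregs, 2.82, 0, 0.726 and 0.345 for Eos- Tregs and 0, 0.745, 0.528 and 0.21 for Tconv, and was chosen after its values were seen. It was higher in Eos+ Tregs than in Tconv by 4.07 (adjusted p = 0.0158), and gave 2.7 against Eos- Tregs (0.106; 0.0204 without Eos- Treg replicate 1 and 0.0168 without the 3 libraries numbered 1).

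The genes for glutamine, glutamate and branched-chain amino acid use were all tested (20 of 20). Eos+ Tregs had 3 higher and 1 lower than Eos- Tregs, and the block raised the 3 to 6. The block also raised the calls over all genes there, from 2500 to 3498. Against Tconv 6 were higher and 2 lower in Eos+ Tregs, and 4 were higher and 4 lower in Eos- Tregs. The counts of 4 fell to 2 without Eos- Treg replicate 3 or 4 or Tconv replicate 1 for the higher genes, and without Eos- Treg replicate 2 or 3 or Tconv replicate 4 for the lower ones. The medians were 0.19, 0.18 and -0.04. Glul, the glutamine synthetase, was 28.5 ± 4.61, 25.4 ± 1.27 and 14.9 ± 0.637 CPM, higher in both Treg groups than in Tconv by 0.94 (adjusted p = 0.000106) and 0.77 (0.0013). The 2 transaminases of branched-chain amino acids went in opposite directions against Tconv. The cytosolic enzyme Bcat1 was 18.4 ± 7.31, 8.02 ± 4.68 and 2.17 ± 0.739 CPM and the mitochondrial enzyme Bcat2 63.4 ± 9.27, 86.3 ± 9.22 and 129 ± 15.8 CPM. Eos+ Tregs differed from Tconv by 3.09 for Bcat1 (adjusted p = 0.000251) and -1.03 for Bcat2 (4.17e-05), and Eos- Tregs by 1.89 (0.0133) and -0.58 (0.00656). The Bcat1 call for Eos- Tregs did not pass with limma-voom (1.73, adjusted p = 0.0737). Bcat1 gave 1.20 between the Treg groups (0.0799, or 0.0167 with the block; 0.0341 without Eos- Treg replicate 1). Bcat2 gave -0.44 (0.0256), which did not pass without replicate 2 or 4 of Eos+ Tregs, replicate 3 of Eos- Tregs or the libraries numbered 1 (0.0598 to 0.0746).

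Of the 20 aminoacyl-tRNA synthetases, which load amino acids onto tRNA, 1 was higher in Eos+ Tregs than in Eos- Tregs and 1 than in Tconv, in both cases Vars, for valine. Vars was 485 ± 36.7, 224 ± 30.9 and 192 ± 16.7 CPM, higher by 1.12 (adjusted p = 2.41e-05) and 1.34 (1.33e-06). Against Tconv, Eos- Tregs had 1 lower and 0 higher; the 1 was 3 with the block, 5 without Eos- Treg replicate 1 and 0 without Eos- Treg replicate 2, 3 or 4 or Tconv replicate 1, 2 or 4. The 0 higher was 1 without Eos- Treg replicate 3. For Eos+ Tregs the 1 higher against Eos- Tregs was 4 without Eos- Treg replicate 1, and the 1 higher against Tconv was 2 with the block or without Eos+ Treg replicate 4. The 0 lower against Tconv was 1 without Eos+ Treg replicate 1. The medians were 0.14, 0.04 and -0.05.

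Of the 20 genes of the list of Myc, its partners and its targets, 1 was higher in Eos+ than in Eos- Tregs, 5 were higher and 1 lower in Eos+ Tregs than in Tconv, and 3 were higher and 1 lower in Eos- Tregs than in Tconv. The 1 higher between the Treg groups was Odc1, which makes polyamines, and it was 2 with the block and 3 without Eos- Treg replicate 1 or the libraries numbered 1. The 1 lower in Eos- Tregs was 4 with the block or without Eos- Treg replicate 1, and the 1 lower in Eos+ Tregs against Tconv was 2 without Eos+ Treg replicate 1, 2 or 4. The medians were 0.06, -0.11 and -0.11. Odc1 was 333 ± 83.0, 71.6 ± 21.1 and 54.5 ± 21.6 CPM, higher in Eos+ Tregs by 2.22 (adjusted p = 0.000274) and 2.61 (2.41e-05). Eos- Tregs against Tconv gave 0.39 (0.405, or 0.0118 with the block). Myc, a factor that in activated T cells is known to raise amino acid carriers, was 153 ± 27.6, 150 ± 47.6 and 93.6 ± 12.1 CPM. It was higher than in Tconv by 0.71 (0.016) in Eos+ Tregs and 0.68 (0.0379) in Eos- Tregs. The second did not pass without replicate 1, 3 or 4 of Eos- Tregs or replicate 2, 3 or 4 of Tconv (0.0544 to 0.0974).

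Other nutrient receptors and carriers (18 of 18 tested) had 2 higher and 0 lower in Eos+ than in Eos- Tregs. The 2 became 5 with the block and 4 without Eos- Treg replicate 1 or the libraries numbered 1. Calls over all genes there also rose with the block, from 2500 to 3498. Against Tconv 5 were higher and 3 lower in Eos+ Tregs, and 2 were higher and 4 lower in Eos- Tregs. The 5 fell to 3 without Tconv replicate 2 or 3, and the 4 to 2 without Eos- Treg replicate 2, 3 or 4 or Tconv replicate 1 or 2. The medians were 0.14, 0.12 and -0.09. Slc16a3, the lactate exporter MCT4, was 40.3 ± 8.97, 24.8 ± 8.12 and 5.46 ± 0.785 CPM, higher than in Tconv by 2.88 (adjusted p = 4.05e-06) and 2.19 (0.000113) in the 2 Treg groups. Between the Treg groups it gave 0.70 (0.0704, or 0.0199 with the block; 0.0369 without Eos+ Treg replicate 1, 0.0347 without the libraries numbered 1); DESeq2 gave 0.0316 and limma-voom 0.0465. Tfrc, the transferrin receptor, was 50.2 ± 3.08, 44.9 ± 3.07 and 85.3 ± 13.2 CPM, with log2 fold changes of -0.77 (0.000176) and -0.93 (0.000138) against Tconv.

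**Figure D5:**
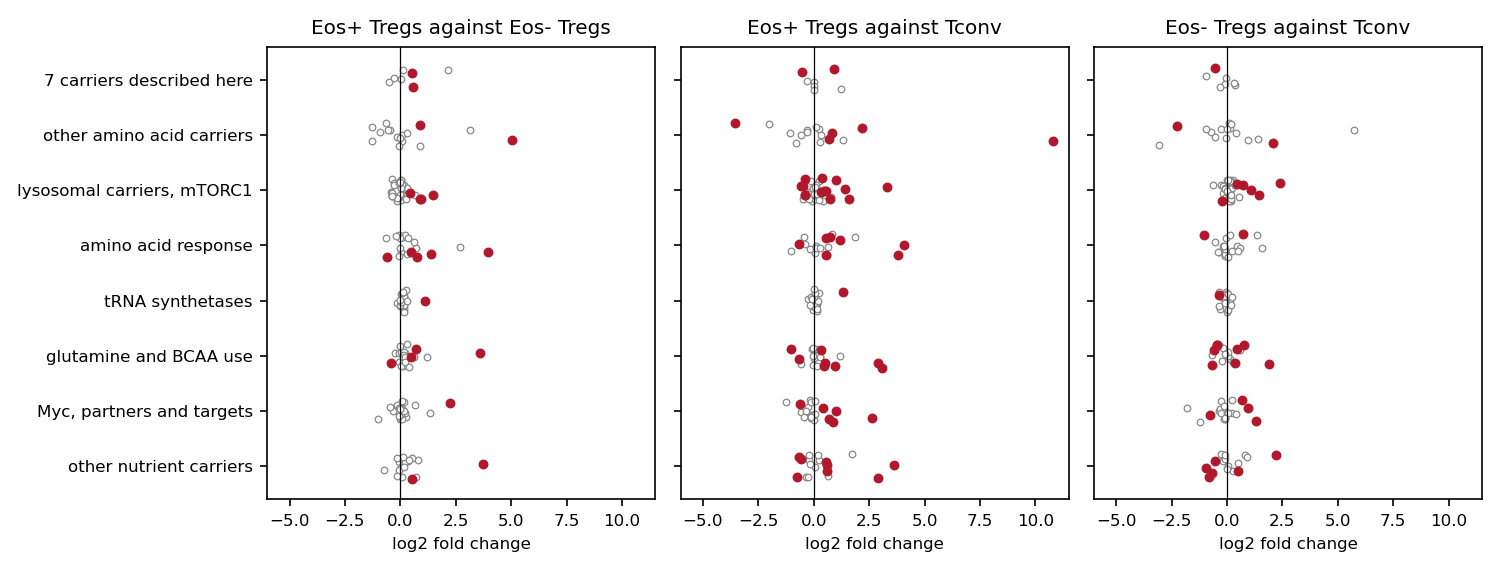
Fitted log2 fold changes of the tested genes of the 7 carriers and 7 related lists, 1 row each; filled red points passed an adjusted p of 0.05 and open grey points did not. Most points of each list are open, with 2, 2 and 1 of the 7 carriers filled; the filled point near the right edge of the middle panel is Slc7a10, whose fitted value rests on a group with no count and is not a measured fold.

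Genes with the library-to-library pattern most like each carrier were found by the Pearson r of log2 CPM over the 12 libraries among 8579 genes. For Slc1a5 these were Eif4ebp1, Brms1 and Scly, each with r of 0.96. For Slc38a1 they were Tmem154 (0.97), Il18rap (0.93) and Cdc42 (0.92). Tmem154 had means of 119, 53.4 and 122 CPM in Eos+ Tregs, Eos- Tregs and Tconv, the lowest in Eos- Tregs as for Slc38a1. For Slc38a2 they included Dtx3l (0.97) and Amigo2 (0.96), and Dtx3l had means of 123, 167 and 165 CPM. The closest gene was Syne2 for Slc7a6 (0.93), Sil1 for Slc3a2 (0.89), Ighmbp2 for Slc1a4 (0.89) and Traf7 for Slc7a5 (0.84). These are descriptions of 12 libraries from 3 groups.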

How the data were processed

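RNA from sorted cells was made into cDNA from 1 ng of total RNA with a SMARTer low-input kit and into libraries with Nextera XT, per the labels' protocols; this kit does not mark strand. The authors deposited 1 table of RSEM expected counts, unscaled. The submitters' processing notes name RSEM 1.3.1, STAR 2.7.0f, cutadapt 1.18 and the mm10 build; parameters are not given in the sources used here. Reads that fit more than 1 gene are divided by RSEM, and 83 of the 84 member values were whole. None of the 7 members shares exon positions with another gene. All 55450 gene IDs matched GENCODE M21, the source of positions and merged exon lengths.

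Rounded expected counts were fitted with edgeR 4.0.16 under R 4.3.3 (quasi-likelihood F test, TMM factors, filterByExpr, 1 mean per group over 12 libraries). P-values were two-sided and Benjamini-Hochberg adjusted over 15361 genes per comparison. Levels are CPM on TMM-scaled totals. Groups came from the labels. The scripts were tested on simulated data. Alternatives were DESeq2 1.42.0, limma-voom (limma 3.58.1), other scaling and filters, 2 groups only, libraries left out and the replicate number as a block. The library names carry the same tag in all 3 groups for each number; the labels do not say what the tags mark. The deviations from group means correlated at 0.138 to 0.318 in the 12 same-number pairs and -0.226 to 0.0695 in the others, so the numbers pair the samples. The main fit did not use this pairing. Calls, intervals and counts given without the block therefore disregard it.

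The members and lists were chosen with earlier results of these data known. Besides the members, Myc, Atf4, Slc7a1, Slc43a2 and Slc7a8, the rule for names took up to 4 called genes per list and comparison with the largest change and a mean of at least 5 CPM. The text names some of these. For likeness it took the 3 highest r among genes of at least 10 CPM. The text names some of those, and 1 of them is not reported here. Genes without a count were set at 3 counts for bounds, which, without molecular identifiers to separate molecules from PCR copies, cover counting error only.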

Additional observations from a re-analysis of the deposited data

Results flagged for a closer look

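In 5 of the 92 groups of 4 libraries examined for members and other named genes, 1 library lay far from the other 3, where chance gives about 1 in 20. Slc38a2 was 315 CPM in Tconv replicate 3 against 225 to 232 CPM in the other Tconv libraries. Slc36a4 was 9.01 CPM in Tconv replicate 2 against 14.9 to 15.3 CPM. Slc7a8 was 0.38 CPM in Eos- Treg replicate 3, and the other 3 Eos- Treg libraries held no count. Slc16a3 was 4.29 CPM in Tconv replicate 3 against 5.75 to 5.99 CPM. Tfrc was 40.3 CPM in Eos- Treg replicate 4 against 45.9 to 46.9 CPM.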

How the results depend on the processing

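No called member or gene count changed direction under the alternatives run. Of 336 fits of a member under an alternative, 317 gave the same call as reported, 10 gained a call and 9 lost it. Between the Treg groups the number of members called was 4 with DESeq2 and ran from 1 to 4 when 1 library was left out. For Eos+ Tregs against Tconv it was 1 without the 3 libraries numbered 1 and 1 to 2 when 1 library was left out. For Eos- Tregs against Tconv it was 2 under each of DESeq2, the replicate block and the fit that left out the number 1 libraries, and 1 to 2 when 1 library was left out. The replicate block changed the call of Slc38a2 between the Treg groups and of Slc1a5 between Eos- Tregs and Tconv, and of no other member. With DESeq2, Slc1a4 (adjusted p = 0.019) and Slc38a2 (0.0497) passed between the Treg groups and Slc1a5 (0.0478) between Eos- Tregs and Tconv. The number of all genes called ran from 1910 to 2936, 3882 to 4377 and 1574 to 2884 in the 3 comparisons when 1 library was left out, and was 3498, 5571 and 3300 with the block. The cause of these changes was not tested. At the depth of Eos- Treg replicate 1, its Slc1a4 count of 0 allows a level of up to 0.125 CPM.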
